A study of Homo sapiens with 6 samples.

Results

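Polycomb group genes encode the subunits of a pair of chromatin-modifying complexes that keep genes silent. The genes described here are EZH1, EZH2, EED and SUZ12 of Polycomb repressive complex PRC2 and BMI1, RNF2, CBX2, CBX7 and CBX8 of complex PRC1, which were chosen by name. These 9 genes were read by 13 of the 34127 gene probes on the arrays, namely every gene probe that carried one of the names, and all 13 were well above background on all 6 arrays with no saturated spot. The arrays compared pLUM and pLB cells, a pure luminal and a pure luminobasal line that were both derived from T47D human breast cancer cells, with 3 arrays per line. pLUM cells had received estradiol (E) at 1 nM over 72 h, and pLB cells had been kept without it (estrogen withdrawal, EWD), both in medium with stripped serum. pLUM cells came from a xenograft tumor grown with E and were sorted as CLD3+CD49f- cells. pLB cells came from a tumor grown with E plus progesterone and were sorted as CLD3-CD49f+ cells. Line, tumor of origin and hormone coincided on all 6 arrays and cannot be told apart. Before RNA extraction the cells were fixed and sorted for CK5, and which CK5 fraction was hybridized was not given in the sources used here.

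PRC2 places methyl groups on lysine 27 of histone H3. EZH2 or its paralogue EZH1 is the catalytic subunit, and EED and SUZ12 are needed for its activity. PRC1 attaches ubiquitin to histone H2A through RNF2 or RING1. In its canonical form it holds a CBX protein that binds the PRC2 mark, together with a PCGF protein such as BMI1. EZH2 and BMI1 are known in breast epithelium for their part in the growth of progenitor cells, and EZH2 transcription is a known target of the E2F factors.

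Log2 signals have the 75th percentile of their own array subtracted, so that a signal of 0 equals that percentile, and a change is the mean of pLB minus the mean of pLUM. The 75th percentile lay between 474 and 566 intensity units on the pLUM arrays and between 449 and 869 on the pLB arrays. Arrays of the same line correlated with r of 0.972 or higher across probes, and arrays of different lines with r of 0.780 to 0.806. All 6 luminal markers examined, ESR1 and PGR among them, were lower in pLB, and all 5 luminobasal markers were higher, with KRT5 and TP63 well above background on no pLUM array. Of 9 markers of leukocytes, endothelium and fibroblasts, CD68 and VWF were higher in pLB, and PECAM1, COL3A1 and PDGFRB were well above background on no array. The summed signal of these 9 ranged from 1.07 to 1.16 times the 75th percentile in pLUM and from 0.70 to 1.36 in pLB, and its part in the results was not tested. COL1A1 was by far the brightest of the 9, with mean log2 signals of -0.27 in pLUM and -0.83 in pLB. In RNA from whole populations, fewer cells of a type and less RNA per cell cannot be told apart. The replicates were separate sorts of 1 line each, so that the p-values measure the spread between sorts.

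A few sequences show what the probes read and which promoter letters are discussed with the E2F genes. Both BMI1 and RNF2 were read by a pair of probes. In each pair the changes had the same direction, but only 1 passed an adjusted p of 0.05. The sequence of 1 probe of each gene is shown. The RNF2 probe shown has a reading frame free of stop codons, which the other RNF2 probe lacks, and the BMI1 probe shown is the one that crosses an intron. The letters of the BMI1 probe, the further probe of that gene, span 409 bases of hg19, chr10:22617587-22617995 on the plus strand. The RNF2 probe, which represents that gene, lies at chr1:185069031-185069090 of hg19 on the plus strand.
BMI1: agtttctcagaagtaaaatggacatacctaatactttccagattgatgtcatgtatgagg
RNF2: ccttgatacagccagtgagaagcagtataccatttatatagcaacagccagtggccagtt

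Promoter windows of RefSeq, from 250 bases before to 50 bases after the start of each gene in GRCh38.p14, were given for 7 of the 9 genes, all but CBX2 and CBX8. They were searched on both strands for the E2F-type letters TTTCCCGC, TTTGGCGC, TTTCGCGC and TTTGCCGC, and 3 of the 7 windows held a match, compared with those of 1090 of 27305 genes in all, or 3.99%. These 27305 genes were not matched to the 7 in type, and the difference between the shares was not tested. The stretches of 50 bases around the matches of EZH2, SUZ12 and EZH1 are shown with the match in capitals. The EZH2 stretch lies at chr7:148884262-148884311 on the minus strand and its match at bases 2 to 9 after the start. The SUZ12 stretch lies at chr17:31936797-31936846 on the plus strand, with the match from base -189 to -182, and the EZH1 stretch at chr17:42745127-42745176 on the minus strand, with a reverse-strand match from base -115 to -108. A match is a description of these letters, not a site.
EZH2: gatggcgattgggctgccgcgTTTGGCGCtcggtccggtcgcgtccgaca
SUZ12: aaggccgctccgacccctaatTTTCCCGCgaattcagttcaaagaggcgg
EZH1: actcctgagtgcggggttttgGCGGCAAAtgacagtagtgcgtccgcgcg

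EZH2, the catalytic subunit of PRC2 in dividing cells, was 4.74-fold lower in pLB. Its log2 signal was 3.10, 3.13 and 3.0 in pLUM (here and in what follows, replicates 1, 2 and 3 in that order) and 0.65, 0.84 and 1.0 in pLB. Every pLUM array was above every pLB array by far more than the spread within a line. The change was -2.24 (SE 0.17, adjusted p = 2.7e-05 in limma), and on the slide that carried the 3 pLUM arrays together with pLB replicate 1 it was -2.42. The probe lies at chr7:148504505-148504564 of hg19 on the minus strand.

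EZH1, the paralogue that predominates in resting cells, was not called. The log2 signals were -0.38, -0.32 and -0.15 in pLUM and -0.60, -0.32 and -0.09 in pLB, and the lines overlapped. The change was -0.05 (SE 0.19, adjusted p = 0.82 in limma), with a 95% interval from -0.49 to 0.39, and it was 0.22 when arrays were scaled on spike-in probes. The single EZH1 probe lies at chr17:40852674-40852733 of hg19 on the minus strand.

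Within each array, the log2 signal of EZH2 exceeded that of EZH1 by 3.15 to 3.47 in pLUM and by 1.1 to 1.25 in pLB. Signals of different probes are not comparable as levels, but the change of this difference is, and it was -2.19, or 4.56-fold against EZH2. The lines did not overlap, and the exact two-sided permutation test gave p = 0.1, the smallest that 3 arrays against 3 allow (adjusted p = 0.1 over 3 pairs).

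The other core subunits of PRC2, EED and SUZ12, were also lower in pLB at an adjusted p under 0.05, but by less than 2-fold. EED, which binds the methylated histone tail, had log2 signals of 3.68, 3.68 and 3.27 in pLUM and 2.71, 2.81 and 2.88 in pLB, without overlap. The change was -0.74, or 1.67-fold (SE 0.18, adjusted p = 0.0088 in limma). SUZ12, which holds the complex together, had 3.54, 3.41 and 2.94 in pLUM and 2.16, 2.08 and 2.67 in pLB, again without overlap, with pLUM replicate 3 and pLB replicate 3 closest to each other. The change was -0.99, or 1.99-fold (SE 0.24, adjusted p = 0.0091 in limma), on a probe with 10 spots per array. The EED probe lies at chr11:85989629-85989688 and the SUZ12 probe at chr17:30327536-30327595 of hg19, both on the plus strand. Scaling on 6 spike-in probes raised the median gene by 0.27 on the log2 scale. With that scaling EED changed by -0.48 (adjusted p = 0.29 in limma) and SUZ12 by -0.72 (adjusted p = 0.096 in limma). SUZ12 was past 2-fold without either of those replicates (-1.17 without pLUM replicate 3 and -1.18 without pLB replicate 3).

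**Figure D1:**
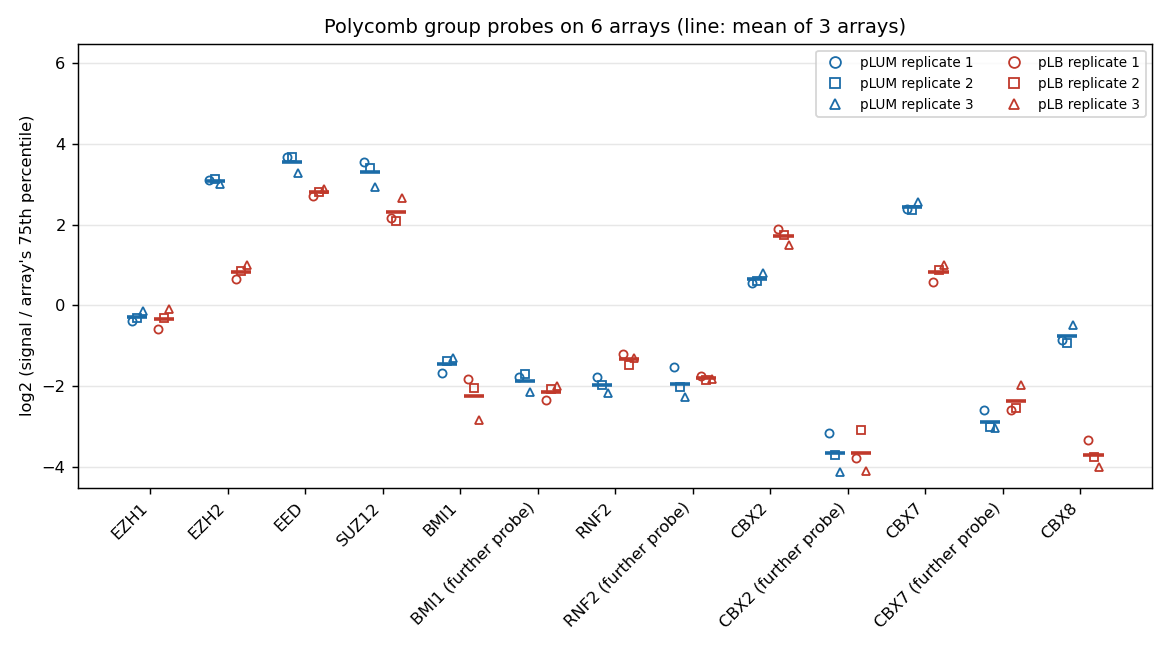
Log2 signal of the 13 Polycomb group probes (y axis, with the 75th percentile of its array at 0) on the 3 pLUM arrays in blue and the 3 pLB arrays in red, with a line at the mean of 3 arrays. EZH2, CBX7 and CBX8 lie lower in pLB without overlap and CBX2 higher, whereas EZH1 and the further probes of 4 genes overlap, and heights of different probes are not comparable as levels.

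Of the PRC1 core, RNF2 and BMI1 were not called. RNF2, the E3 ligase that ubiquitinates H2A, had log2 signals of -1.77, -1.98 and -2.18 in pLUM and -1.21, -1.47 and -1.30 in pLB on its representative probe, shown above. All pLB arrays were above all pLUM arrays, and the change was 0.65 (SE 0.18, adjusted p = 0.015 in limma), under 2-fold. With normexp background correction the change was 0.33 (adjusted p = 0.27 in limma), and with spike-in scaling adjusted p = 0.061. A further RNF2 probe, 2033 bases away, had -1.53, -2.04 and -2.28 in pLUM and -1.76, -1.85 and -1.84 in pLB. Its lines overlapped and its change was 0.13 (SE 0.22, adjusted p = 0.62 in limma).

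BMI1, the PCGF subunit that stimulates the ligase, had log2 signals of -1.68, -1.39 and -1.31 in pLUM and -1.84, -2.06 and -2.85 in pLB on its representative probe. pLB replicate 3 was the lowest, and the lines did not overlap. The change was -0.80 (SE 0.28, adjusted p = 0.041 in limma), under 2-fold, and adjusted p = 0.40 with spike-in scaling. It was -0.50 without pLB replicate 3 and -0.39 (adjusted p = 0.39 in limma) on the shared slide. On its further probe, shown above, the signals of -1.77, -1.70 and -2.16 in pLUM and -2.36, -2.08 and -2.01 in pLB overlapped, and the change was -0.27 (SE 0.20, adjusted p = 0.26 in limma). For both genes, therefore, the change was under 2-fold and passed an adjusted p of 0.05 on 1 probe but not on the other, and the difference between probes was not tested.

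The chromobox subunits, which bring canonical PRC1 to the PRC2 mark, changed in unlike directions. CBX8 had the largest change of the 9 genes and was 7.73-fold lower in pLB. Its log2 signal was -0.87, -0.93 and -0.49 in pLUM and -3.34, -3.77 and -4.02 in pLB. The lines were well apart, and the change was -2.95 (SE 0.23, adjusted p = 3.5e-05 in limma), or -2.58 on the shared slide. With normexp background correction the change was -1.93, still a call.

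CBX7 was 3.07-fold lower in pLB on its representative probe. The log2 signals were 2.39, 2.35 and 2.57 in pLUM and 0.58, 0.87 and 1.0 in pLB, which did not overlap, and the change was -1.62 (SE 0.18, adjusted p = 0.00019 in limma), or -1.86 on the shared slide. A further CBX7 probe, 2659 bases away, had -2.61, -3.01 and -3.04 in pLUM and -2.61, -2.54 and -1.99 in pLB. It showed no fall, with a change of 0.50 (SE 0.23, adjusted p = 0.095 in limma), and the mean of both probes changed by -0.56 and was not called.

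CBX2 was the 1 gene of the 9 that was called higher in pLB, by 2.10-fold. The log2 signals of its representative probe were 0.54, 0.60 and 0.79 in pLUM and 1.88, 1.75 and 1.5 in pLB, without overlap, and the change was 1.07 (SE 0.18, adjusted p = 0.0014 in limma), or 1.24 on the shared slide. It was close to the threshold, at 0.97 after quantile normalization and 0.98 without pLB replicate 1, and the mean of both probes changed by 0.54, none of which is a call. The further probe, for another transcript of CBX2, had -3.18, -3.71 and -4.13 in pLUM and -3.8, -3.09 and -4.11 in pLB. These signals overlapped, and the change was 0.01 (SE 0.34, adjusted p = 0.99 in limma).

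CBX2 and CBX8 are neighbours, with representative probes 6980 bases apart on chromosome 17 of hg19, at chr17:77761302-77761361 on the plus strand and chr17:77768342-77768401 on the minus strand, and moved in opposite directions. The CBX7 probe lies at chr22:39527000-39527059 on the minus strand. On representative probes, the change of CBX2 exceeded that of CBX7 by 2.69 on the log2 scale, or 6.44-fold (1.1 with the mean of each gene's probes). The change of CBX8 was below that of CBX7 by a difference of -1.33, or 2.52-fold. That difference was -0.43 with normexp, -0.72 on the shared slide and -2.39 with the mean of each gene's probes. On representative probes, arrays of the lines did not overlap in either difference. The exact two-sided permutation test gave p = 0.1 for each, the smallest possible (adjusted p = 0.1 over 3 pairs).

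**Figure D2:**
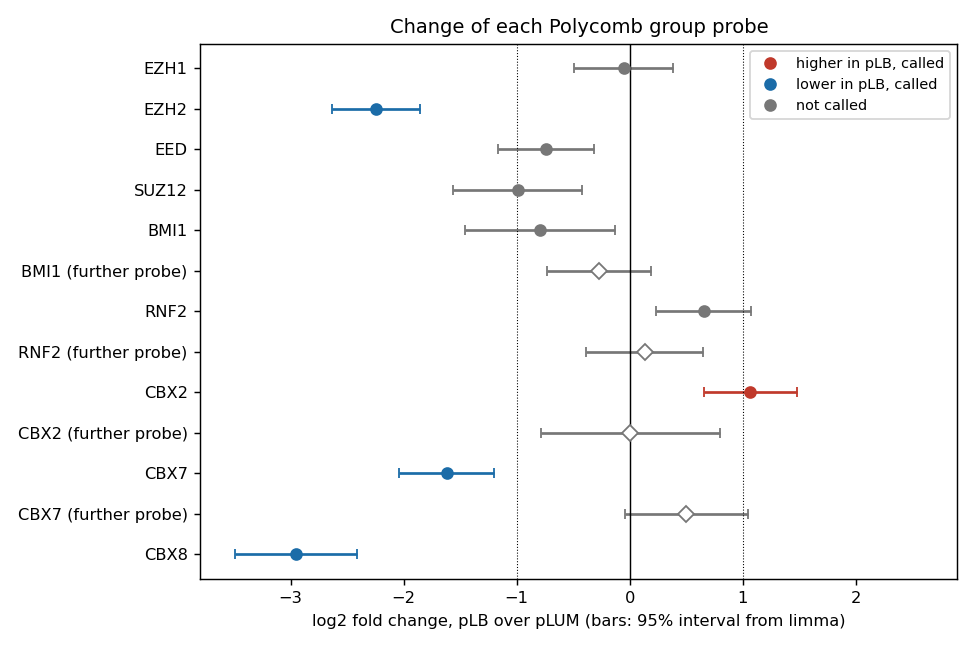
Change of each Polycomb group probe (x axis, log2 of pLB over pLUM) with its 95% interval from limma, where filled circles are representative probes, open diamonds further probes and dotted lines the 2-fold threshold. EZH2, CBX7 and CBX8 were called lower and CBX2 higher, and no further probe was called.

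Of the 9 genes, 1 was called higher and 3 lower, where 22.6% of all 17780 genes tested were called higher and 23.1% lower. With no fold threshold, 2 were higher and 6 lower at an adjusted p under 0.05, against 32.3% and 31.1% of all genes and 63.4% in either direction. Among the 13 probes, 1 was called higher and 3 lower, where 21.9% of all tested probes were called higher and 23.7% lower. The lines did not overlap for 8 of the 9, and for 69.1% of all genes. Differences between these lines were thus common, and the count of 4 called genes was near the 45.8% called in either direction. The median change of the 9 was -0.80, and that of all genes 0.03. The median size of a change, whatever its direction, was 0.99 for the 9 and 0.92 for all genes. By size, 9.75% of genes had a larger change than CBX8 and 16.1% a larger change than EZH2.

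Other subunits of the complexes were examined next. Of 34 further Polycomb subunits and opposing enzymes tested, 8 were called higher and 8 lower, with a median change of -0.07, near the shares of all genes (22.6% higher and 23.1% lower), and ASXL3 was not tested as its probe was not well above background on any array. Among 7 other PRC2 subunits, the histone-binding RBBP7 was lower and 2 accessory subunits were higher. RBBP7 fell from log2 signals of 3.90, 3.96 and 3.92 to 2.25, 2.26 and 1.66, a change of -1.87 (SE 0.21, adjusted p = 0.0002 in limma). JARID2, which helps to bring PRC2 to its targets, rose from 1.23, 1.34 and 1.22 to 2.74, 2.62 and 2.78, a change of 1.45. PHF19, a Polycomb-like protein, changed by 1.46, and by 1.69 on a further probe. RBBP4, the paralogue of RBBP7, was not called on its representative probe (change -0.38, adjusted p = 0.18 in limma). However, a further RBBP4 probe was called lower (change -2.31), and the others, at 0.09 and -0.31, were not called.

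Among 8 other canonical PRC1 subunits, PHC2 was higher and RING1, PHC3 and SCML2 lower. RING1, the paralogue of RNF2, had log2 signals of 2.80, 2.48 and 2.83 in pLUM and 0.69, 0.61 and 0.80 in pLB, and its change was -2.0 (SE 0.17, adjusted p = 5.4e-05 in limma). The lines did not overlap, and RING1 was thus 4.01-fold lower where RNF2 was not called. The polyhomeotic genes PHC3 and PHC2 changed by -2.37 and 1.59, although a further PHC2 probe changed by -0.00. SCML2 changed by -1.03 and lost its call in 5 of 17 alternatives, among them spike-in scaling (-0.76) and leaving out pLUM replicate 3 (-0.88), pLB replicate 1 (-0.99) or pLB replicate 2 (-0.99). PCGF2, a paralogue of BMI1, was not called (change -0.20), and its direction was the opposite with spike-in scaling (0.06). CBX6, a paralogue of the CBX genes above, changed by 0.84 (adjusted p = 0.012 in limma), under 2-fold.

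The 14 subunits of variant PRC1 gave 2 higher and 3 lower, where 22.6% and 23.1% of all genes were called. PCGF1 changed by 1.19 and AUTS2 by 1.90, whereas RYBP changed by -1.29, BCOR by -2.94 and USP7 by -1.53. AUTS2 and BCOR rest on 1 of several probes, since 2 other AUTS2 probes changed by 0.76 and -0.64 and another BCOR probe by -0.10. Of 5 opposing enzymes, which remove the PRC1 or PRC2 marks or serve such enzymes, 3 were higher and 1 lower, beside the same shares of all genes. BAP1, which takes ubiquitin off H2A, changed by 1.64 and its partner ASXL1 by 1.21. KDM6A, a demethylase of lysine 27, had log2 signals of -0.29, -0.01 and -0.14 in pLUM and -1.52, -1.30 and -1.39 in pLB, a change of -1.26 (SE 0.16, adjusted p = 0.00042 in limma), and -1.94 on a further probe. It was just under 2-fold with spike-in scaling (-0.99). Its paralogue KDM6B, well above background on 2 of 3 pLUM arrays, changed by 1.05 (SE 0.33, adjusted p = 0.027 in limma). It lost its call in 6 of 16 alternatives and was -0.08 in another, normexp background correction, so that its direction is not settled. With that correction 5 of the 34 genes were called higher and 5 lower, and SCML2, PCGF1, RYBP, USP7 and ASXL1 kept their direction but were under 2-fold.

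**Figure D3:**
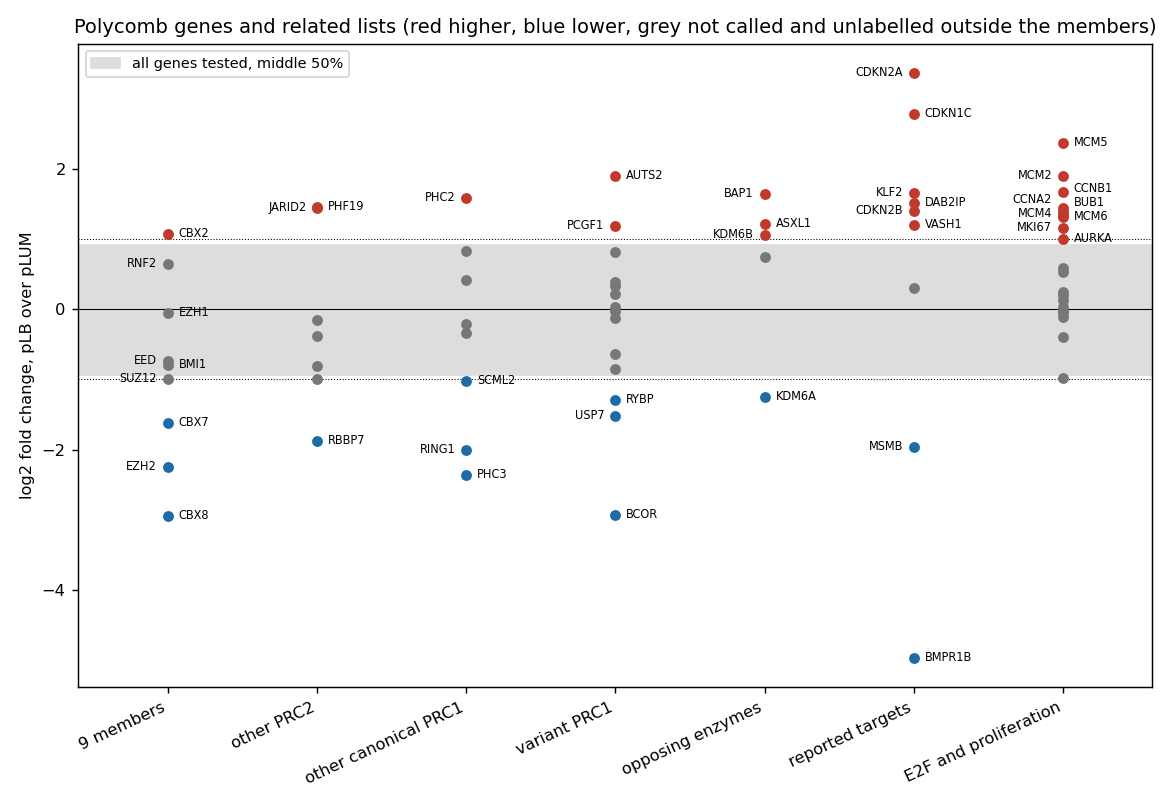
Change of each gene tested (y axis, log2 of pLB over pLUM) in the Polycomb genes and 6 related lists, in red where called higher, blue where called lower and grey where not called, with the middle 50% of all genes tested as a band and the 2-fold threshold dotted. Called genes lie on both sides in the lists of Polycomb subunits, and in the proliferation list only above. The value of BMPR1B is fitted against a line in which it was not well above background.

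Genes that are reported as Polycomb-repressed in other cells were considered next. Whether they are targets in these lines was not tested, and the list was chosen with earlier results of these data known. Of 11 such genes, 9 were tested, of which 6 were called higher in pLB, 2 lower and 1 not called, with a median change of 1.40. Over all genes, 22.6% were called higher and 23.1% lower, with a median of 0.03. SLIT2 and RUNX3 were not tested. CDKN2A, the cell cycle inhibitor locus that is a classical target of BMI1 and CBX7 in other cells, had log2 signals of 1.43, 1.42 and 1.29 in pLUM and 4.84, 4.86 and 4.54 in pLB. It was 10.3-fold higher in pLB (change 3.37, SE 0.17, adjusted p = 4.5e-06 in limma), and its other probe was 8.08-fold higher (change 3.02). CDKN1C, another inhibitor of cyclin-dependent kinases, rose from 0.00, 0.15 and 0.04 to 2.97, 2.94 and 2.62, or 6.88-fold.

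The neighbouring inhibitor CDKN2B was near background, with 1 of 3 pLUM arrays well above it. Its change of 1.40 (SE 0.49, adjusted p = 0.041 in limma) was -0.16 and not called with normexp background correction. It also lost its call in 8 more of the 16 alternatives. KLF2 (1.66), DAB2IP (1.52) and VASH1 (1.20) were higher as well, although KLF2 was just under 2-fold with normexp. MSMB changed by -1.96 and was well above background on 2 of 3 pLB arrays, and BMPR1B, which was well above background on no pLB array, was at least 7.72-fold lower, a bound that sets the pLUM mean against the lowest signal well above background on each pLB array, or the BMPR1B signal there if that was higher. CDH1, the epithelial cadherin, was not called (change 0.30). The binding of Polycomb proteins to these genes was not measured.

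**Figure D4:**
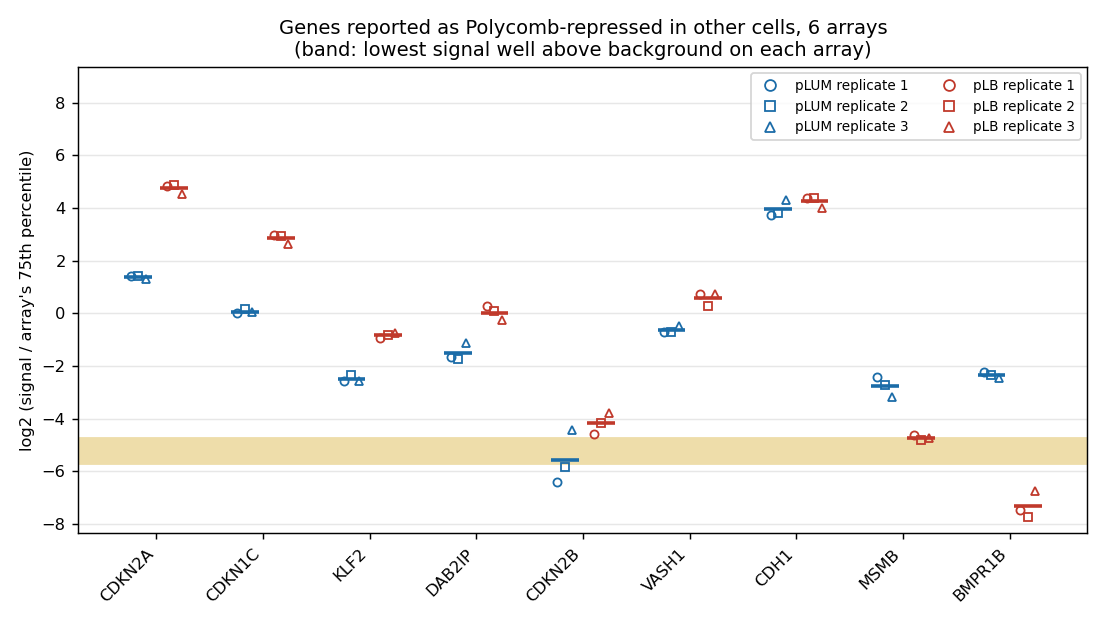
Log2 signal (y axis, with the 75th percentile of its array at 0) of the 9 tested genes reported as Polycomb-repressed in other cells, on the 3 pLUM arrays in blue and the 3 pLB arrays in red, with lines at the means. The band spans the lowest signals well above background on the arrays, and BMPR1B lies below it in pLB.

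EZH2, EED and SUZ12 are known to be expressed with E2F and proliferation genes, and a list of 20 such genes was examined beside them. Of the 20, 9 were called higher in pLB and none lower by limma at the 2-fold threshold, with 1, MCM3 (-0.99), lower at an adjusted p under 0.05 alone, and their median change was 0.56. For all genes these shares were 22.6% and 23.1%, and the median change was 0.03. The higher genes included the replication licensing genes MCM5 (2.37), MCM2 (1.91), MCM4 (1.34) and MCM6 (1.32). The mitotic genes CCNB1 (1.67), CCNA2 (1.45), BUB1 (1.38), MKI67 (1.16) and AURKA (1.0) were higher too. However, a further CCNB1 probe changed by -0.31. A further MKI67 probe changed by 1.68, and another, well above background on 3 arrays, by 0.01. The other 11 genes were not called, among them CDK1, TYMS, TOP2A, RRM2 (-0.39), PCNA (0.14) and E2F1 (0.60). With normexp, CCNA2 was not called (0.70, adjusted p = 0.066 in limma). AURKA lost its call in 6 of 17 alternatives, among them without pLUM replicate 1 (0.86) or pLB replicate 2 (0.89), and MKI67 in 4, among them the slide block (0.65) and without pLB replicate 3 (0.96). EZH2 was lower in the same arrays. Its window held an E2F-type match, as did those of SUZ12 and EZH1, which were not called. E2F activity and binding were not measured. In the paper, pLUM cells generally proliferated faster than pLB cells in hormone-free colonies, a measure other than RNA.

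Genes with a pattern most like that of EZH2 were sought among 13064 genes with a range of at least 1 on the log2 scale, as the root mean square difference of 6 centred log2 signals. The closest were the transcript ENST00000409310 (0.05), ZNF177 (0.06) and RC3H1 (0.06), with changes of -2.16, -2.26 and -2.13. For CBX8 they were TM7SF2 (0.11), CRIP2 (0.12) and OBSL1 (0.13), with changes of -2.92, -2.88 and -2.82.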

How the data were processed

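RNA of 3 pLUM and 3 pLB samples was measured on 1-colour Agilent arrays. The authors deposited, for each array, Agilent Feature Extraction 10.10.1.1 output with an intensity per spot, background-subtracted and detrended but not normalized between arrays, and other columns of flags. Probe positions are those of the file headers' build, hg19. Control and outlier-flagged spots were left out, the log2 of the intensity minus each array's 75th percentile was taken, and spots of a probe were averaged. Of 34127 probes, 23097 had a signal well above background on 3 or more arrays, and for these the lines were compared by lmFit and eBayes of limma 3.58.1 (R 4.3.3), which was also tested on simulated data. P-values were adjusted over all tested probes by the Benjamini-Hochberg method, and a call required 2-fold and an adjusted p under 0.05. The probe whose mean across the 6 arrays was highest stood for its gene. The number of arrays limits the precision. Slide 1 held all pLUM arrays and pLB replicate 1, and pLB replicates 2 and 3 were on slide 2. Background correction, scaling, the filter, thresholds, the test, the choice of probe and blocks were varied in turn, and each array was left out. Genes and lists were chosen with earlier results of these data known. Named genes are all members, called genes of the lists and some that were not called, direct paralogues and opposing enzymes, and the 3 genes most like EZH2 and like the member with the largest change. Promoter letters were taken from RefSeq for GRCh38.p14, and no position was converted between builds. Some genes of the lists are not reported here and were left out of the counts of the lists.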

Additional observations from a re-analysis of the deposited data

How the results depend on the processing

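EZH2 (-2.42 to -1.97) and CBX8 (-3.14 to -1.93) were called lower in all 17 alternatives run for them, whereas CBX7 lost its call with the mean of its probes (-0.56). SUZ12 passed 2-fold with quantile normalization (-1.21), median scaling (-1.01) and a slide block (-1.14), and BMI1 without pLB replicate 1 (-1.0), although BMI1 was -0.39 with a slide block and -0.50 without pLB replicate 3. The Polycomb genes called higher were 0 in place of 1 with quantile normalization and with the mean of a gene's probes, 2 with no fold threshold, and 0 to 1 with an array left out, the 0 being without pLB replicate 1. Those called lower were 6 in place of 3 with no fold threshold. With normexp background correction, which lowered the median gene by -0.25, there were 3002 probes called higher in pLB in place of 5052, and 5 other Polycomb genes higher and 5 lower in place of 8 and 8. The change of EZH2 minus that of EZH1 was -1.97 with normexp and -2.34 with quantile normalization. The change of CBX2 minus that of CBX7 was 3.09 with a slide block and 1.1 with the mean of probes, and that of CBX8 minus CBX7 was -0.43 with normexp, -0.72 with a slide block and -2.39 with the mean of probes. The cause of these differences was not tested, and the slide block compares the 3 pLUM arrays with pLB replicate 1 alone.

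Among the genes given with values in the report, changes that reversed were small or near background. With normexp they were those of the further probes of RNF2 (-0.0283) and CBX2 (-0.30), CDKN2B (-0.16) and KDM6B (-0.0825), and with spike-in scaling EZH1 (0.22) and PCGF2 (0.064). The further CBX2 probe also reversed with quantile normalization (-0.0587), median scaling (-0.0102) and a slide block (-0.13). With an array left out, EZH1 ranged from -0.17 to 0.0774, PCGF2 from -0.42 to 0.00804, and the further probes of CBX2 from -0.28 to 0.25 and of RNF2 from -0.0317 to 0.34. Of 66 other listed genes, 21 changed a call in at least 1 alternative, and 0 went from a call in 1 direction to a call in the other. CDKN2B and KDM6B, called higher in the results above, were not called with normexp, where they reversed. Another 11 of the 66, PHC1 among them and 0 of them called, reversed in at least 1 alternative.

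Replicate numbers did not pair the samples, as deviations of same-numbered arrays correlated at -0.27, -0.10 and -0.22. With a replicate block, the probes called higher in pLB were 4983 and the probes called lower in pLB 5381, the same counts of 1 and 3 Polycomb genes and of 8 and 8 others, and differences between paralogues of -2.19, 2.69 and -1.33.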

Other observations

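Probes of further Polycomb genes that were not called on their representative probe gave other values elsewhere in the gene. Of 4 RBBP4 probes, 1 was called lower with a change of -2.31 (adjusted p = 2e-05 in limma), whereas the other changes were -0.38, 0.09 and -0.31. For YAF2, a subunit of variant PRC1, the representative probe changed by -0.85 (adjusted p = 0.093 in limma) and a further probe by -1.84. PHC1 changed by -0.33 on its representative probe and by 1.24 on another, and ASXL2 by 0.74 and 1.51. These probes were singled out after their values were seen.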
